A study of Danio rerio with 6 samples.

Results

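The genes described here are those whose level separated both csf1rDM libraries from all 4 control libraries in the skin of adult zebrafish. The libraries hold RNA of mpeg1-GFP+ cells sorted from skin, and the level of a gene is given as CPM, its value scaled to the same total in every library. Genes were selected on their CPM in the 2 genotypes. A gene was taken as lost in csf1rDM when its lowest control level plus 1 CPM was at least 4 times its highest csf1rDM level plus 1 CPM. It was taken as gained when its lowest csf1rDM level plus 1 CPM was at least 4 times its highest control level plus 1 CPM. Of the 20382 genes that reached 1 CPM in 2 or more libraries, from 32520 listed, 40 met the first condition (0.196%) and 41 met the second (0.201%). The genes csf1ra and scd (lost) and adgrf11 (gained) were left out by name, which left 78 genes, 38 lost and 40 gained. The same genotype difference chose these genes, so their levels in the 2 genotypes are given as a description, with no test.

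The study compared skin cells of fish that lack Csf1r signalling with those of controls, in 3 groups of 2 libraries each. The csf1rDM fish were homozygous for the j4e1 allele of csf1ra and for the sa1503 allele of csf1rb, which changes an essential splice site. All fish, controls included, carried 3 transgenes: mpeg1-EGFP, which marks mpeg1+ cells, Kdrl:Cre, which expresses Cre from an endothelial promoter, and act2b:loxP-STOP-loxP-DsRedexpress, which turns on DsRed in the descendants of cells that expressed Cre. All were untreated adults of 3 months. Per the study's text, the csf1rDM libraries (replicates 2 and 3) hold GFP+DsRed- cells, while the controls, wild type apart from the transgenes, gave GFP+DsRed+ cells (replicates 1 and 3) and GFP+DsRed- cells (replicates 1 and 2). GFP+DsRed+ cells were scarce in csf1rDM skin and gave no library. No source used here says that the control fish were siblings of the mutants, so an effect of the 2 alleles and a difference between families of fish cannot be told apart. Nor do the labels say whether replicates came from separate fish, so that p-values measure only the spread between these libraries.

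Csf1r is a receptor tyrosine kinase for the cytokines Csf1 and Il34. It is needed by many tissue macrophages, and in zebrafish csf1ra is also needed by xanthophores, the yellow pigment cells of the skin. mpeg1 is expressed by macrophages and, in zebrafish skin, also by metaphocytes, which resemble macrophages but descend from ectoderm. Many zebrafish genes have no name beyond the genomic clone or contig on which they were annotated: the text before the dot in a name such as si:ch211-181d7.3 or BX324216.1 is the clone, and genes with the same text lie on the same one. Names that begin with zgc come from a collection of sequenced cDNAs. Several groups met below, among them NLR genes, GIMAP-type GTPases, zinc finger genes and small nuclear RNAs, form large families of similar copies in zebrafish, between which reads can be divided or lost.

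The csf1rDM libraries were the shallowest, with 4024251 and 5072634 gene-assigned reads recovered, against 10069864 to 14816042 in the 4 control libraries, so that depth moved with genotype and a floor of 3 reads stood for 0.591 and 0.745 CPM in csf1rDM and for 0.202 to 0.298 CPM in controls. After all libraries were thinned to the shallowest one, 36 of the 38 lost and 37 of the 40 gained genes still met the conditions. mpeg1.1 was detected in all 6 libraries, at 127 and 98.2 CPM in csf1rDM, 1196 and 1579 CPM in control DsRed+ and 150 and 64.4 CPM in control DsRed- cells. The pan-leukocyte gene ptprc was at 15.0 and 10.7 CPM in csf1rDM, 571 and 785 CPM in control DsRed+ and 20.2 and 13.2 CPM in control DsRed- cells. The epithelial genes cdh1 and epcam lay between 1354 and 1686 CPM in the csf1rDM and control DsRed- libraries. In control DsRed+ cells they were lower but not absent, at 549 and 456 CPM (cdh1) and 596 and 495 CPM (epcam). Of the mutated genes, csf1rb had 0 reads in both csf1rDM libraries, 34.1 and 47.7 CPM in control DsRed+ and 0.55 and 0.60 CPM in control DsRed- cells. csf1ra was at 1.4 and 2.25 CPM in csf1rDM, 1081 and 1124 CPM in control DsRed+ and 102 and 86.9 CPM in control DsRed- cells. Neither allele removes its gene, so these levels are no direct check of the genotype.

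**Figure D1:**
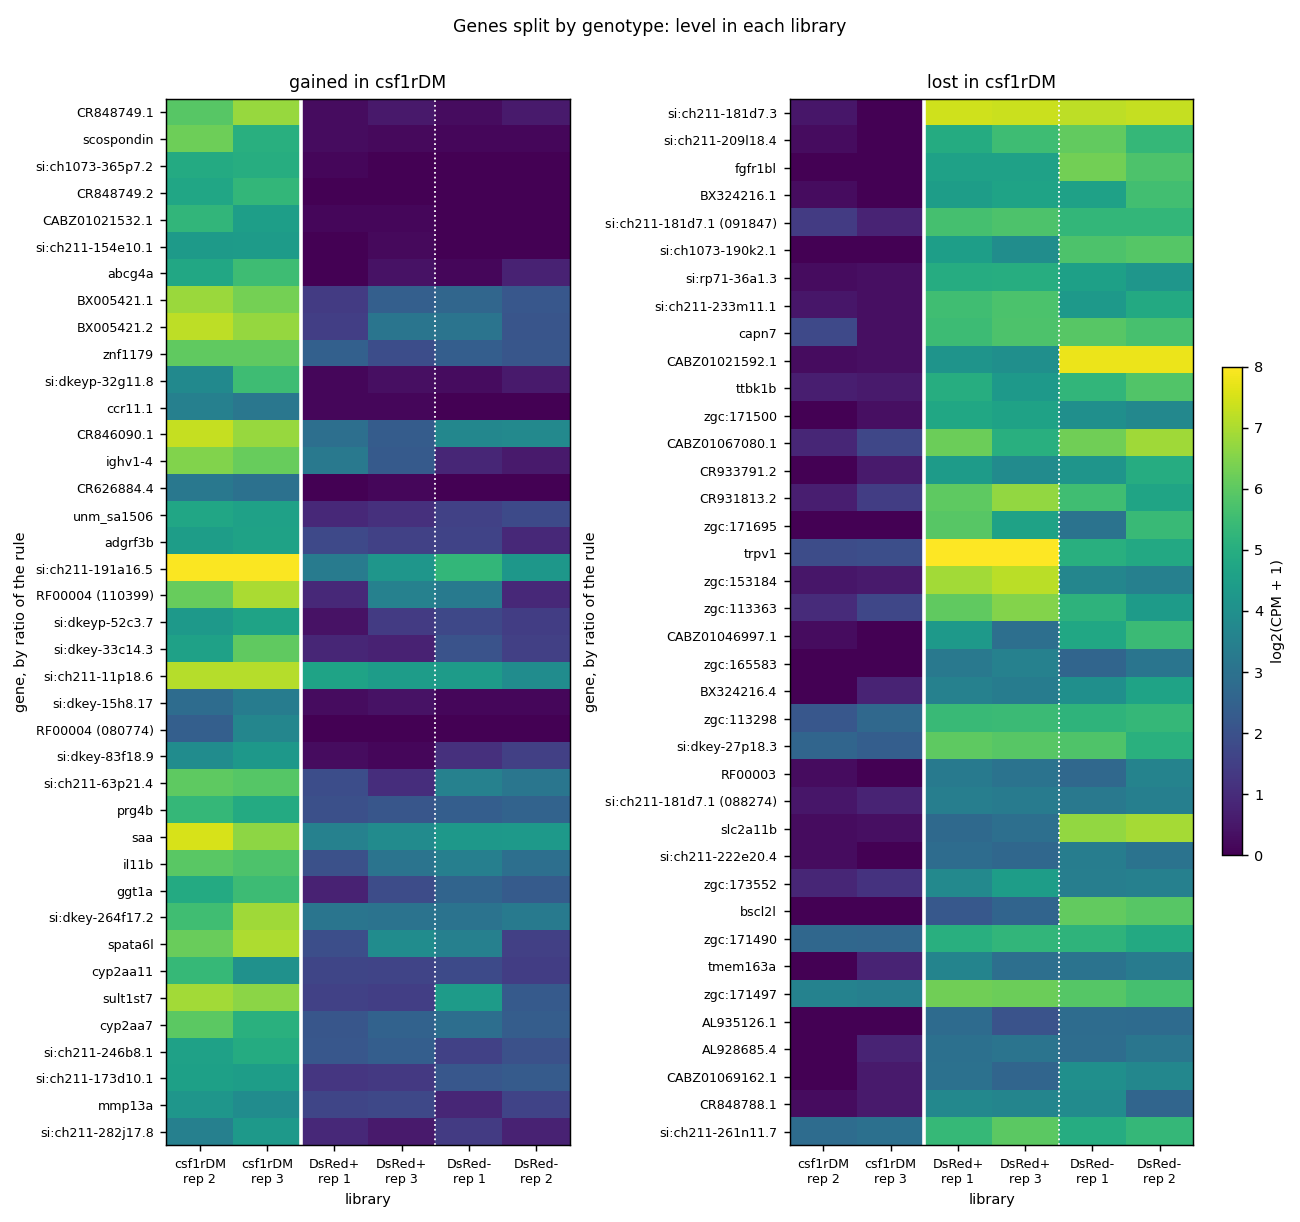
Level of the split genes in each library, as log2(CPM + 1), with gained genes in the left panel and lost genes in the right one, ordered by the ratio between the lowest library of the higher genotype and the highest library of the lower one. The 2 csf1rDM libraries stand left of the white line and the 4 control libraries right of it. The lost genes are mostly near 0 in csf1rDM, while many gained genes keep a low level in controls.

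The split was close to on or off for most of the lost genes and for fewer of the gained ones. Among the 38 lost genes, 6 had no read in either csf1rDM library, 20 had at most 3 reads in each and 12 had more. Of the 40 gained genes, 2 had no read in any control library, 6 had at most 3 reads in each and 32 had more. These classes are not equal, as 3 reads stood for 0.591 and 0.745 CPM in csf1rDM but 0.202 to 0.298 CPM in controls. By CPM, 26 lost and 12 gained genes were under 1 CPM in every library of the low side. That side is 2 libraries for lost genes and 4 for gained ones, so its highest level is taken over more libraries for gained genes. The highest level on the low side had a median of 0.50 CPM over the lost genes and 2.8 CPM over the gained ones, and it reached 10.6 CPM (zgc:171497) and 38.4 CPM (si:ch211-191a16.5). On the high side, 14 gained genes and 1 lost gene had at least 50 CPM in every library of that side. For gained genes that side is the csf1rDM libraries, and for lost genes it is the control libraries of both cell populations. Its lowest level is thus taken over more libraries for lost genes, so these counts do not show which genes were more abundant. The ratio used for the selection had a median of 6.42 over the lost genes and 5.91 over the gained ones, and 13 lost and 10 gained genes reached a ratio of at least 10.

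At the threshold itself the choice was fine-grained. The lost genes just inside were si:ch211-261n11.7 (ratio 4.01), CR848788.1 (4.07) and CABZ01069162.1 (4.1), and those just outside were ptk6b (3.91), wu:fb44b02 (3.89) and agtrap (3.87). The gained genes just inside were si:ch211-282j17.8 (4.35), mmp13a (4.45) and si:ch211-173d10.1 (4.47), and just outside were si:dkey-52p2.5 (3.999), FO904903.1 (3.95) and si:dkey-61f9.1 (3.86).

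**Figure D2:**
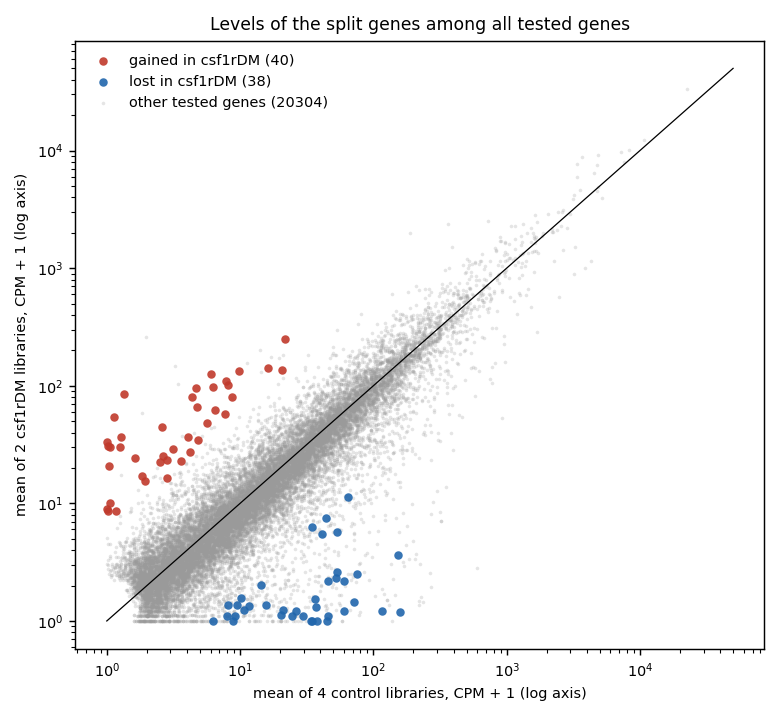
Mean CPM + 1 of the 2 csf1rDM libraries against that of the 4 control libraries for the 20382 genes tested, both axes logarithmic. Each point is a gene, the line marks equal levels, and the 40 gained (red) and 38 lost (blue) genes lie at low and middle levels, apart from the most abundant genes of the cells.

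The lost gene with the widest split was si:ch211-181d7.3, which a names table gives as nlrc11, a gene named for the NLR family of intracellular immune sensors. It was at 0.40 and 0 CPM in csf1rDM, 170.2 and 165 CPM in control DsRed+ and 145 and 155 CPM in control DsRed- cells. All 4 controls lay within a narrow range, with means of 167 ± 3.84 CPM in control DsRed+ and 150.0 ± 6.72 CPM in control DsRed- cells (SD, n = 2 each), and the only reads in csf1rDM were 2 in replicate 2. Both other listed genes of the clone were lost as well, both listed as si:ch211-181d7.1 with different identifiers, although the names table gives ENSDARG00000091847 as si:ch211-181d7.2. The more abundant of them (ENSDARG00000091847) was at 1.6 and 0.75 CPM in the csf1rDM libraries, against 49.2 and 53.6 CPM in control DsRed+ and 38.7 and 38.7 CPM in control DsRed- libraries. The other (ENSDARG00000088274) was at 0.40 and 0.75 CPM in csf1rDM and at 8.39 to 9.89 CPM across the controls.

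fgfr1bl, annotated as similar to a fibroblast growth factor receptor, had no read in either csf1rDM library, while it was at 22.7 and 22.7 CPM in control DsRed+ and 78.1 and 53.4 CPM in control DsRed- cells. Taken against the floor of the shallower csf1rDM library, its control mean was at least 59.4-fold higher. A second listed entry of the same name (ENSDARG00000104015) was not split, at 1.2 and 1.75 CPM in csf1rDM, 1.4 and 1.35 CPM in control DsRed+ and 7.94 and 5.4 CPM in control DsRed- cells. fgfr1a, fgfr1b, fgfr2, fgfr3 and fgfr4, the receptors of that family, were all detected in csf1rDM, and fgfr1bl was the only split gene among the 9 tested genes whose names begin with fgfr.

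trpv1 encodes a cation channel that in mammals responds to heat and capsaicin. Its level was 2.6 and 2.75 CPM in csf1rDM, 282 and 265 CPM in control DsRed+ and 32.1 and 27.4 CPM in control DsRed- cells. Control DsRed+ cells thus held the most trpv1, and control DsRed- cells still exceeded both csf1rDM libraries. The related channel genes trpv4 (50.1 and 39.3 CPM in csf1rDM, 35.4 to 65.0 CPM in controls) and trpv6 were not split. Closest to the threshold was si:ch211-261n11.7, named tnfrsf14 in the names table after a receptor of the tumour necrosis factor family, which was at 6.15 and 6.75 CPM in csf1rDM against 30.0 to 62.2 CPM in controls. tmem163a, which encodes a membrane protein that in mammals transports zinc, had 0 and 0.75 CPM in csf1rDM and 6.55 to 11.2 CPM in controls.

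slc2a11b and bscl2l, both on the list of xanthophore markers, were lost from the csf1rDM libraries and were highest in control DsRed- cells. slc2a11b, a sugar transporter family gene needed for the yellow pigment cell lineage in fish, was at 0.20 and 0.25 CPM in the csf1rDM libraries, against 5.7 and 6.65 CPM in control DsRed+ and 104 and 119 CPM in control DsRed- libraries. bscl2l, similar to the lipid droplet gene BSCL2, had no read in csf1rDM, and it was at 3.6 and 5.0 CPM in control DsRed+ and 66.5 and 59.5 CPM in control DsRed- cells. Its control mean was at least 45.1-fold above the csf1rDM floor. All 8 listed xanthophore markers were lower in both csf1rDM libraries than in every control library, although only slc2a11b and bscl2l met the condition for a split. The 8 summed to 3.4 and 2.75 CPM in csf1rDM, 27.2 and 33.3 CPM in control DsRed+ and 496 and 438 CPM in control DsRed- cells. bscl2l, slc2a15a and xdh were at 0 in csf1rDM. For slc2a11b and bscl2l the selection required the lower level. The other 6 markers summed to 3.2 and 2.5 CPM in csf1rDM, 17.9 and 21.7 CPM in control DsRed+ and 326 and 259 CPM in control DsRed- cells. In bulk samples, fewer cells of a type and less RNA per cell cannot be told apart. The summed levels of the macrophage, melanophore, iridophore and fibroblast lists were also lower in both csf1rDM libraries than in every control library. The macrophage markers summed to 131 and 110 CPM in csf1rDM, 3858 and 4199 CPM in control DsRed+ and 270 and 160 CPM in control DsRed- cells. csf1ra is among them, at 1.4 and 2.25 CPM in csf1rDM and 102 and 86.9 CPM in control DsRed- cells. Without csf1ra, which itself met the condition for a lost gene, the macrophage sums of csf1rDM and control DsRed- libraries overlapped. Most of what remained in these libraries was mpeg1.1, at 127 and 98.2 CPM in csf1rDM and 150 and 64.4 CPM in control DsRed- cells. The melanophore markers summed to 5.4 and 4.25 CPM in csf1rDM, 10.2 and 9.69 CPM in control DsRed+ and 26.6 and 36.3 CPM in control DsRed- cells. The iridophore markers summed to 17.4 and 21.1 CPM in csf1rDM, 122 and 123 CPM in control DsRed+ and 46.8 and 34.1 CPM in control DsRed- cells. The fibroblast markers summed to 2835 and 1093 CPM in csf1rDM, 4616 and 4580 CPM in control DsRed+ and 10307 and 9130 CPM in control DsRed- cells. Single markers were less uniform than these sums. Lower in both csf1rDM libraries than in every control library were 5 of 9 macrophage, 2 of 4 tested melanophore, 3 of 5 iridophore and 2 of 4 fibroblast markers. The other tested markers of these lists overlapped between genotypes. In control DsRed+ cells, tfec made up 80.3 and 89.4 CPM of the iridophore sum, and gpnmb 28.4 and 18.0 CPM. Without tfec and gpnmb, the iridophore sum was not lower in csf1rDM than in control DsRed+ cells. Apart from csf1ra, which was left out by name, no macrophage, melanophore, iridophore or fibroblast marker met the condition for a split. The part of the marker lists in the losses was not tested.

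CABZ01021592.1, a gene known only by its contig, had levels of the same shape, at 0.20 and 0.25 CPM in csf1rDM, 16.8 and 14.8 CPM in control DsRed+ and 218 and 215 CPM in control DsRed- cells. Its control DsRed- libraries stood far above the control DsRed+ libraries, and both stood above csf1rDM. zgc:153184 had the reverse order between the control populations, at 0.40 and 0.50 CPM in the csf1rDM libraries, against 117 and 143 CPM in control DsRed+ and 11.6 and 10.1 CPM in control DsRed- libraries.

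Lost genes with roles in enzymes and signalling included capn7, which encodes a calpain protease, and ttbk1b, which encodes a kinase named for tau and tubulin. capn7 was at 2.4 and 0.25 CPM in csf1rDM, 43.4 and 54.0 CPM in control DsRed+ and 59.5 and 50.2 CPM in control DsRed- cells. ttbk1b was at 0.60 and 0.50 CPM in the csf1rDM libraries, against 30.9 and 18.8 CPM in control DsRed+ and 37.3 and 56.1 CPM in control DsRed- libraries. For both genes the lowest control library lay far above csf1rDM, and the control populations overlapped in capn7 but not in ttbk1b. The GTPase genes CABZ01067080.1 and CR933791.2 are described with their families below.

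The remaining lost genes of the highest ratios carry only clone or cDNA collection names. si:ch211-209l18.4 was at 0.20 and 0 CPM in csf1rDM, 29.0 and 44.9 CPM in control DsRed+ and 66.8 and 38.9 CPM in control DsRed- cells. BX324216.1 was at 0.20 and 0 CPM in the csf1rDM libraries, against 21.0 and 23.7 CPM in control DsRed+ and 23.1 and 46.7 CPM in control DsRed- libraries, and a second gene of that contig, BX324216.4, was lost too, at 0 and 0.75 CPM in csf1rDM and 9.19 to 23.7 CPM in controls. The other 2 tested genes of that contig, BX324216.2 and BX324216.3, did not meet the condition. si:ch1073-190k2.1 had no read in csf1rDM, and it was at 21.2 and 14.2 CPM in control DsRed+ and 53.2 and 57.9 CPM in control DsRed- cells. Its mean over the controls was at least 49.1-fold above the csf1rDM floor.

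For si:rp71-36a1.3 the levels were 0.20 and 0.25 CPM in csf1rDM, 30.3 and 30.4 CPM in control DsRed+ and 22.3 and 17.2 CPM in control DsRed- cells. si:ch211-233m11.1 was at 0.40 and 0.25 CPM in the csf1rDM libraries, against 45.4 and 52.2 CPM in control DsRed+ and 18.7 and 28.0 CPM in control DsRed- libraries. zgc:171500 had a single read in csf1rDM, as it was at 0 and 0.25 CPM there, 26.3 and 23.3 CPM in control DsRed+ and 14.9 and 12.3 CPM in control DsRed- cells. In each of these 3 genes the control DsRed+ libraries were the highest, and the control DsRed- libraries remained many times above csf1rDM. zgc:171695 and zgc:165583 had no read in csf1rDM. zgc:171695 varied widely among controls, where it was at 59.5 and 23.5 CPM in control DsRed+ and 7.25 and 41.6 CPM in control DsRed- cells, and its control mean was at least 44.2-fold above the floor. zgc:165583 was a low gene throughout, and it was at 8.45 and 10.4 CPM in control DsRed+ and 5.05 and 7.6 CPM in control DsRed- cells, at least 10.6-fold above the floor on average. AL935126.1, the last lost gene with no csf1rDM read, had 3.15 to 6.1 CPM in controls, at least 7.11-fold above the floor on average.

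Lower ratios were seen for the last 7 lost genes, none of which has a gene symbol. CABZ01046997.1 was at 0.20 and 0 CPM in csf1rDM, against 6.65 to 42.4 CPM in controls, and si:dkey-27p18.3 at 5.15 and 4.25 CPM in csf1rDM, against 32.7 to 63.3 CPM in controls. CR848788.1 had 0.20 and 0.50 CPM in csf1rDM, against 5.1 to 13.6 CPM in controls, and CABZ01069162.1 had 0 and 0.50 CPM in csf1rDM, against 5.15 to 14.8 CPM in controls. The loss of si:dkey-27p18.3 was partial, while CABZ01046997.1, CR848788.1 and CABZ01069162.1 were near the floor in csf1rDM. zgc:173552 was at 0.80 and 1.25 CPM in csf1rDM, against 9.69 to 21.1 CPM in controls, a gene named from a further clone (ENSDARG00000092578) at 0.20 and 0 CPM in csf1rDM, against 5.35 to 9.44 CPM in controls and AL928685.4 at 0 and 0.75 CPM in csf1rDM, against 6.2 to 7.85 CPM in controls.

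The gained gene with the widest split was CR848749.1, which is annotated without a function. It was at 59.3 and 109 CPM in csf1rDM, 0.20 and 0.45 CPM in control DsRed+ and 0.20 and 0.50 CPM in control DsRed- cells. The only other gene listed on that clone, CR848749.2, was gained too and had no read in any control library, with 25.8 and 38.3 CPM in csf1rDM. Its csf1rDM mean was at least 108-fold above the control floor. The libraries of csf1rDM thus held both genes of the clone, and controls held almost no read of either.

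scospondin, which encodes a giant secreted protein known as a component of the Reissner fiber of the central canal, was at 74.3 and 32.1 CPM in the csf1rDM libraries, against 0.20 and 0.15 CPM in control DsRed+ and 0.0999 and 0.0999 CPM in control DsRed- libraries. The csf1rDM libraries differed more than 2 times after 1 CPM was added, as they did for 7 of the 40 gained and 1 of the 38 lost genes. abcg4a, an ABC transporter gene whose mammalian counterpart acts in sterol export, was at 26.6 and 45.0 CPM in csf1rDM, 0 and 0.30 CPM in control DsRed+ and 0.0999 and 0.70 CPM in control DsRed- cells. ccr11.1, a chemokine receptor gene, was at 10.3 and 8.0 CPM in the csf1rDM libraries, against 0.1000 and 0.0999 CPM in control DsRed+ and 0 and 0 CPM in control DsRed- libraries. All 3 genes were at or under 1 CPM in every control library.

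znf1179, one of a large set of zinc finger genes, was at 64.5 and 64.9 CPM in csf1rDM, 4.5 and 2.7 CPM in control DsRed+ and 4.25 and 3.45 CPM in control DsRed- cells. Its level was nearly equal in the 2 csf1rDM libraries, and its immediate neighbours in the gene order, also zinc finger genes, were not split. adgrf3b, an adhesion G protein-coupled receptor gene, was at 21.1 and 23.4 CPM in csf1rDM against 0.899 to 2.4 CPM in controls. The other 5 tested adgrf genes include adgrf11, which met the condition but was left out by name, at 35.5 and 25.3 CPM in csf1rDM and at most 0.30 CPM in controls.

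Beside BX005421.2, described with its family below, 5 more gained genes of the highest ratios carry clone or contig names. si:ch1073-365p7.2 was at 29.0 and 30.3 CPM in csf1rDM, 0.1000 and 0 CPM in control DsRed+ and 0 and 0 CPM in control DsRed- cells. CABZ01021532.1 was at 37.3 and 21.4 CPM in the csf1rDM libraries, against 0.1000 and 0.0999 CPM in control DsRed+ and 0 and 0 CPM in control DsRed- libraries. A gene named from another clone (ENSDARG00000094605) was at 19.7 and 19.9 CPM in csf1rDM, 0 and 0.15 CPM in control DsRed+ and 0 and 0 CPM in control DsRed- cells. These 3 genes had 0 to 3 reads in each control library. BX005421.1 was at 111 and 79.3 CPM in the csf1rDM libraries, against 1.6 and 4.35 CPM in control DsRed+ and 5.3 and 3.55 CPM in control DsRed- libraries, and thus present in every control library at a low level. si:dkeyp-32g11.8, named ntrnl2 in the names table, was at 13.0 and 45.2 CPM in csf1rDM, 0.1000 and 0.25 CPM in control DsRed+ and 0.20 and 0.50 CPM in control DsRed- cells. With 1 CPM added to each, its csf1rDM libraries were 3.29 times apart, the widest gap among the gained genes.

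The most abundant gained gene was si:ch211-191a16.5, of no known function, with 247 and 248 CPM in csf1rDM against 8.95 to 38.4 CPM in controls. The named genes saa, il11b, mmp13a and prg4b, linked to inflammation or to the extracellular matrix, were also gained. saa, an acute-phase protein gene, was at 181 and 99.9 CPM in csf1rDM, 10.5 and 13.4 CPM in control DsRed+ and 18.2 and 18.8 CPM in control DsRed- cells. il11b, a cytokine gene of the interleukin 6 family, was at 60.5 and 53.4 CPM in the csf1rDM libraries, against 3.0 and 7.39 CPM in control DsRed+ and 9.89 and 6.55 CPM in control DsRed- libraries. mmp13a, a collagenase gene, was at 17.3 and 13.7 CPM in csf1rDM, 2.2 and 2.3 CPM in control DsRed+ and 0.799 and 2.05 CPM in control DsRed- cells, and prg4b, related to the lubricin gene, was at 39.2 and 28.6 CPM in csf1rDM and 2.9 to 4.8 CPM in controls. The control populations overlapped or lay close together for these genes, and none reached the csf1rDM levels.

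mmp13a is also on the list of neutrophil markers. Without its split entry, the listed markers summed to 6.6 and 35.1 CPM in csf1rDM, 356 and 298 CPM in control DsRed+ and 7.34 and 4.3 CPM in control DsRed- cells. Of this sum, mpx made up 1.4 and 30.3 CPM in csf1rDM, and csf3r 353 and 296 CPM in control DsRed+ cells. Of the csf1rDM libraries, replicate 3 alone was above the control DsRed- libraries in this sum, and the part of these markers in the level of mmp13a was not tested. A second listed entry named mmp13a (ENSDARG00000012395), which that sum still includes, was not split, at 3.2 and 2.25 CPM in csf1rDM against 0.10 to 0.50 CPM in controls. ighv1-4, named for an immunoglobulin heavy chain variable segment and given as ighm, the heavy chain of IgM in B cells, in the names table, was at 88.7 and 70.1 CPM in the csf1rDM libraries, against 8.35 and 3.85 CPM in control DsRed+ and 0.799 and 0.50 CPM in control DsRed- libraries. The other B cell markers on the list were cd79a, which was tested, and cd79b and pax5, which did not reach 1 CPM in 2 libraries. They summed to 2.2 and 1.5 CPM in csf1rDM, 2.6 and 3.45 CPM in control DsRed+ and 2.35 and 0.999 CPM in control DsRed- cells, so that the genotypes overlapped in them, at levels of few reads.

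Enzymes of small-molecule metabolism were represented among the gained genes by cyp2aa7 and cyp2aa11, cytochrome P450 genes, by sult1st7, a cytosolic sulfotransferase gene, and by ggt1a, a gamma-glutamyltransferase gene. cyp2aa7 was at 62.3 and 33.0 CPM in the csf1rDM libraries, against 3.4 and 4.75 CPM in control DsRed+ and 6.45 and 4.15 CPM in control DsRed- libraries. cyp2aa11 was at 39.8 and 15.7 CPM in csf1rDM, 2.2 and 2.1 CPM in control DsRed+ and 2.5 and 1.75 CPM in control DsRed- cells. They are adjacent in the gene order, and of the 8 cyp2aa genes tested they alone met the condition, although cyp2aa8 (17.0 and 10.7 CPM in csf1rDM, 1.7 to 2.15 CPM in controls) and cyp2aa4 (5.95 and 4.75 CPM in csf1rDM, 0.0999 to 0.899 CPM in controls) came near it. The summed level of the 8 genes was 149 and 98.5 CPM in csf1rDM, 15.7 and 18.2 CPM in control DsRed+ and 26.9 and 21.1 CPM in control DsRed- cells.

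sult1st7 was at 118 and 97.2 CPM in the csf1rDM libraries, against 1.9 and 1.8 CPM in control DsRed+ and 19.8 and 3.85 CPM in control DsRed- libraries. Control DsRed- replicate 1 stood above the other controls. The remaining 5 tested sult1st genes were not split, and sult1st9 came closest, at 29.8 and 36.3 CPM in csf1rDM against 4.0 to 14.2 CPM in controls.

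ggt1a was at 28.6 and 43.5 CPM in csf1rDM, against 0.70 to 4.95 CPM in controls. The csf1rDM libraries lay over 2 times apart in some gained genes: si:dkey-33c14.3 was at 22.9 and 64.6 CPM in csf1rDM, against 0.70 to 3.1 CPM in controls and si:dkey-264f17.2 at 45.9 and 114 CPM in csf1rDM, against 7.2 to 8.55 CPM in controls. spata6l, named for a spermatogenesis-associated gene, was at 70.8 and 129 CPM in csf1rDM, against 1.85 to 13.7 CPM in controls. The csf1rDM libraries were closer to each other in si:ch211-173d10.1, which the names table gives as trpm4b3 after the melastatin type of TRP channels, at 22.3 and 21.1 CPM in csf1rDM, against 1.4 to 3.95 CPM in controls.

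Further gained genes without a known function spanned a wide range of levels. si:ch211-11p18.6 was at 136 and 136 CPM in csf1rDM, against 13.8 to 23.8 CPM in controls, and CR846090.1 at 156 and 109 CPM in csf1rDM, against 4.05 to 12.7 CPM in controls. Both were thus clearly present in controls. Lower levels were found for unm_sa1506 (25.4 and 22.9 CPM in csf1rDM, against 0.90 to 2.5 CPM in controls), si:dkeyp-52c3.7 (18.7 and 23.9 CPM in csf1rDM, against 0.30 to 2.3 CPM in controls) and si:ch211-246b8.1 (22.9 and 29.6 CPM in csf1rDM, against 1.95 to 4.3 CPM in controls). The lowest were those of CR626884.4 (8.3 and 7.0 CPM in csf1rDM, against 0 to 0.0999 CPM in controls) and si:dkey-15h8.17 (6.15 and 9.2 CPM in csf1rDM, against 0.0999 to 0.30 CPM in controls), which were nearly without reads in controls.

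In some families a gene was lost while another was gained or higher. The table describes 2 tested genes as similar to interferon-induced very large GTPase 1, a member of a family of interferon-responsive GTPases. CABZ01067080.1 was lost, at 0.80 and 2.25 CPM in csf1rDM, 72.4 and 32.3 CPM in control DsRed+ and 76.2 and 116 CPM in control DsRed- cells. BX005421.2 was gained, at 145 and 104 CPM in the csf1rDM libraries, against 1.8 and 7.59 CPM in control DsRed+ and 7.49 and 3.3 CPM in control DsRed- libraries. The levels of the pair were thus crossed in every library, and their sum was 146 and 107 CPM in csf1rDM, 74.2 and 39.9 CPM in control DsRed+ and 83.7 and 119 CPM in control DsRed- cells, so that the genotypes overlapped in the sum. BX005421.1 on the same contig was gained as well, and the third gene there, BX005421.3, was higher without meeting the condition, at 32.7 and 23.9 CPM in csf1rDM against 2.7 to 7.25 CPM in controls.

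GTPases of the IMAP family act in the survival of lymphocytes in mammals. CR933791.2, described as similar to IMAP family member 7, was lost, at 0 and 0.50 CPM in csf1rDM, 20.1 and 13.4 CPM in control DsRed+ and 17.0 and 29.9 CPM in control DsRed- cells. It was the only split gene of 9 tested. Another, BX004816.1, was at 66.2 and 46.0 CPM in csf1rDM, 1.6 and 2.05 CPM in control DsRed+ and 32.0 and 14.7 CPM in control DsRed- cells.

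U1 and U2 RNAs are components of the spliceosome and are encoded by many near-identical copies, so the levels of single copies are uncertain. Of 193 listed copies, 11 were tested. A U1 copy (ENSDARG00000113445) was lost, at 0.20 and 0 CPM in csf1rDM and 5.5 to 10.9 CPM in controls. A U2 copy (ENSDARG00000110399) was gained, at 69.2 and 125 CPM in the csf1rDM libraries, against 0.90 and 10.5 CPM in control DsRed+ and 8.89 and 0.899 CPM in control DsRed- libraries. A further U2 copy (ENSDARG00000080774) was gained at a low level, with 4.35 and 11.7 CPM in csf1rDM and no read in any control library, at least 26.9-fold above the control floor on average. The summed level of the 11 copies was 265 and 311 CPM in csf1rDM, 178 and 123 CPM in control DsRed+ and 134 and 167 CPM in control DsRed- cells.

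**Figure D3:**
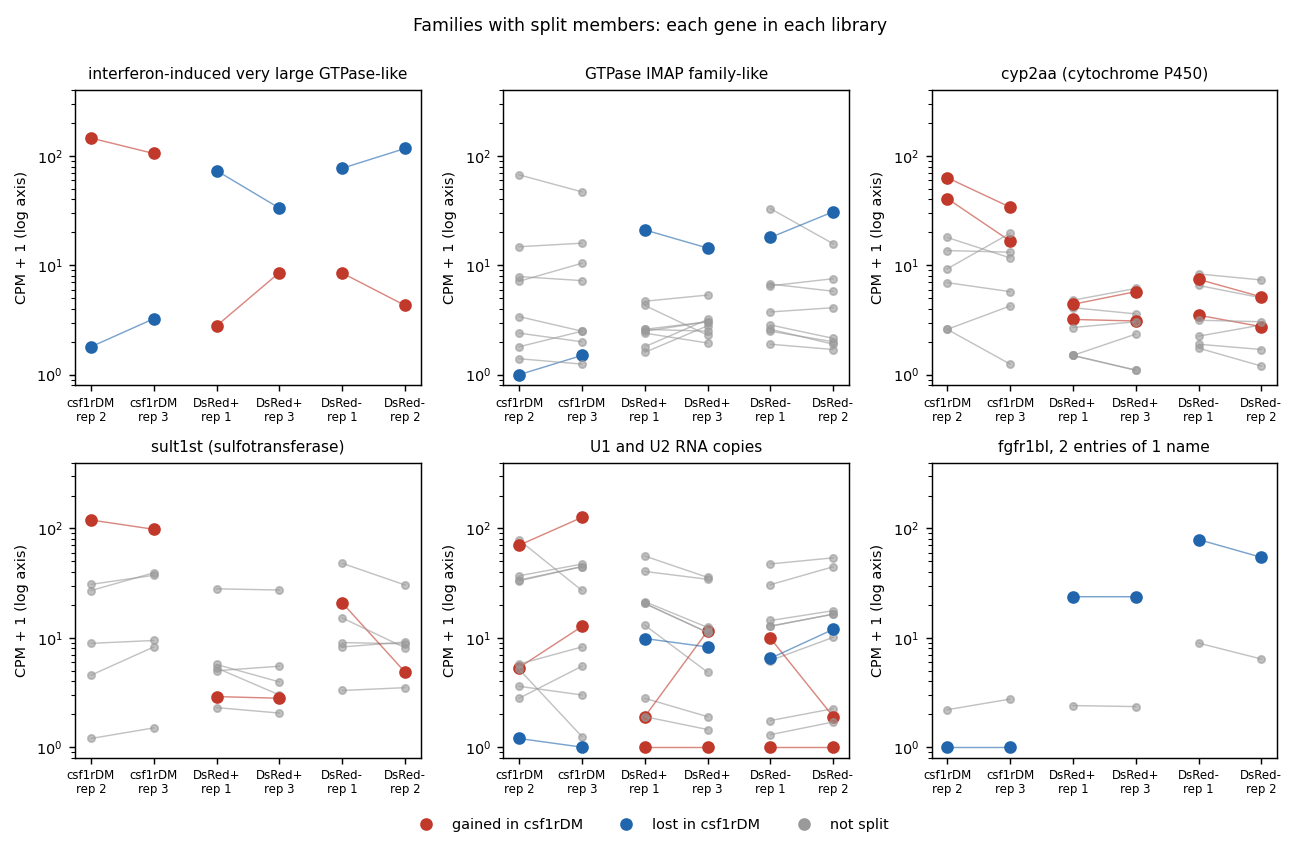
CPM + 1 on a logarithmic axis for each tested gene of 5 families and for the 2 listed entries named fgfr1bl, in each library, with lines joining libraries of 1 group. Gained genes are red, lost genes blue and genes that were not split grey. The 2 very large GTPase genes cross between csf1rDM and control libraries, and most cyp2aa genes are higher in csf1rDM than in controls.

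Shared clone names linked a minority of the split genes. Of the 78 genes, 49 carry a clone or contig name, as their main or an older name, from 47 clones. More than 1 split gene lay on 5 clones, 11 genes in all: BX005421, CR848749 and si:dkey-15h8 among the gained genes, and BX324216 and si:ch211-181d7 among the lost ones. No clone held both a lost and a gained gene. All tested genes were split on si:ch211-181d7 (3 of 3) and CR848749 (2 of 2), but only 2 of 9 on si:dkey-15h8.

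The tested genes on the same clones that were not split themselves differed as follows. On clones of lost genes, 12 of 29 such genes (41.4%) had a log2 ratio of csf1rDM to control means below -1, on the CPM + 1 scale, and 1 (3.45%) had one above 1 (median -0.51). On clones of gained genes, 4 of 41 (9.76%) were below -1 and 12 (29.3%) were above 1 (median 0.48). Over all tested genes, 11.9% were below -1 and 5.72% were above 1, with a median of -0.14. By place in the gene order the shares near lost genes were closer to those of all genes: of 86 tested genes within 5 places of a lost gene that were not split, 15.1% were below -1 and 8.14% above 1 (median -0.17), and of 180 within 10 places these were 13.9% and 7.22% (median -0.15). Near gained genes, 6.34% of 142 within 5 places were below -1 and 18.3% above 1 (median 0.03), and of 251 within 10 places these were 7.17% and 12.4% (median -0.05). Genes of 1 clone are not independent, and overlapping or similar genes could share reads.

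Gene order could be examined for 50 of the 78 genes, 24 lost and 26 gained, which matched the RefSeq annotation of GRCz12tu by name or identifier, against 82.8% of all tested genes. This assembly differs from the GRCz11 assembly used for the counts, so it served only for the order of genes. Another split gene lay within 5 genes of 12 of the 50 and within 50 genes of 20, and for 19 of those 20 the nearest split gene had moved in the same direction. Both genes of a close pair enter these counts, and entries matched to the same RefSeq gene are counted separately. Such counts were not made for all matched tested genes, so whether split genes lay closer together than other genes was not tested. None of the 50 matched split genes lay within 50 genes of csf1ra or csf1rb, while the distance of the unmatched ones is unknown. The nearest was bscl2l, 53 genes from csf1ra, and none of the matched genes lay on the chromosome of csf1rb. Around csf1ra, 9 of 38 tested genes within 50 places (23.7%) had a log2 ratio below -1 and 0 had one above 1, and around csf1rb these were 3 and 2 of 47.

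The longest run of split genes held 7 lost genes within 70 consecutive RefSeq genes, when genes up to 50 places apart were linked, a distance chosen after the positions were seen. In order these were si:rp71-36a1.3, zgc:113298, zgc:171490, si:ch211-209l18.4, zgc:171497, zgc:171500 and fgfr1bl. Besides the values above, zgc:113298 was at 3.55 and 5.5 CPM in csf1rDM and 36.0 to 42.7 CPM in controls, zgc:171490 at 5.35 and 5.25 CPM in csf1rDM and 28.1 to 37.5 CPM in controls, and zgc:171497 at 10.6 and 9.95 CPM in csf1rDM and 48.8 to 75.5 CPM in controls. These 3 kept a low level in csf1rDM, unlike the other 4, which had at most 1 read in each library. The run was not uniform, since of 22 tested genes within it that were not split, 9 had a log2 ratio below -1, 3 above 1 and 10 between. si:ch211-274k16.2, for example, averaged 2.95 CPM in csf1rDM and 49.8 CPM in controls, while si:dkey-19a16.2 averaged 8.07 CPM in csf1rDM and 1.17 CPM in controls. The lost gene AL928685.4 had no RefSeq match and so no place in the order. Its contig mates AL928685.1 and AL928685.2 are si:ch211-274k16.4 and si:ch211-274k16.6 in the names table, and si:ch211-274k16.2 bears the same clone name. The chromosome with this run held 8 of the 24 matched lost genes (33.3%) and 3.71% of all matched tested genes.

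Runs of gained genes were shorter. si:ch211-282j17.8, si:ch211-63p21.4 and si:dkey-83f18.9 lay within 41 RefSeq genes, and in csf1rDM they were at 10.3 and 18.6 CPM, at 63.7 and 58.6 CPM and at 13.8 and 18.1 CPM, against at most 1.6, 10.5 and 1.85 CPM in controls. Gained znf1179 and si:dkey-15h8.17 lay within 9 genes of the same zinc finger cluster. A run of mixed direction held si:ch211-191a16.5, gained, and the 3 lost genes of si:ch211-181d7, within 28 genes. Another chromosome held 6 of the 26 matched gained genes (23.1%) and 5.60% of all matched tested genes.

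The lost genes CR931813.2 and zgc:113363 are adjacent and had similar levels in every library. CR931813.2 was at 0.60 and 1.75 CPM in csf1rDM, 64.3 and 103 CPM in control DsRed+ and 45.7 and 24.2 CPM in control DsRed- cells. zgc:113363 was at 0.999 and 2.25 CPM in the csf1rDM libraries, against 64.9 and 90.2 CPM in control DsRed+ and 34.7 and 20.04 CPM in control DsRed- libraries. Whether they share reads was not tested.

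**Figure D4:**
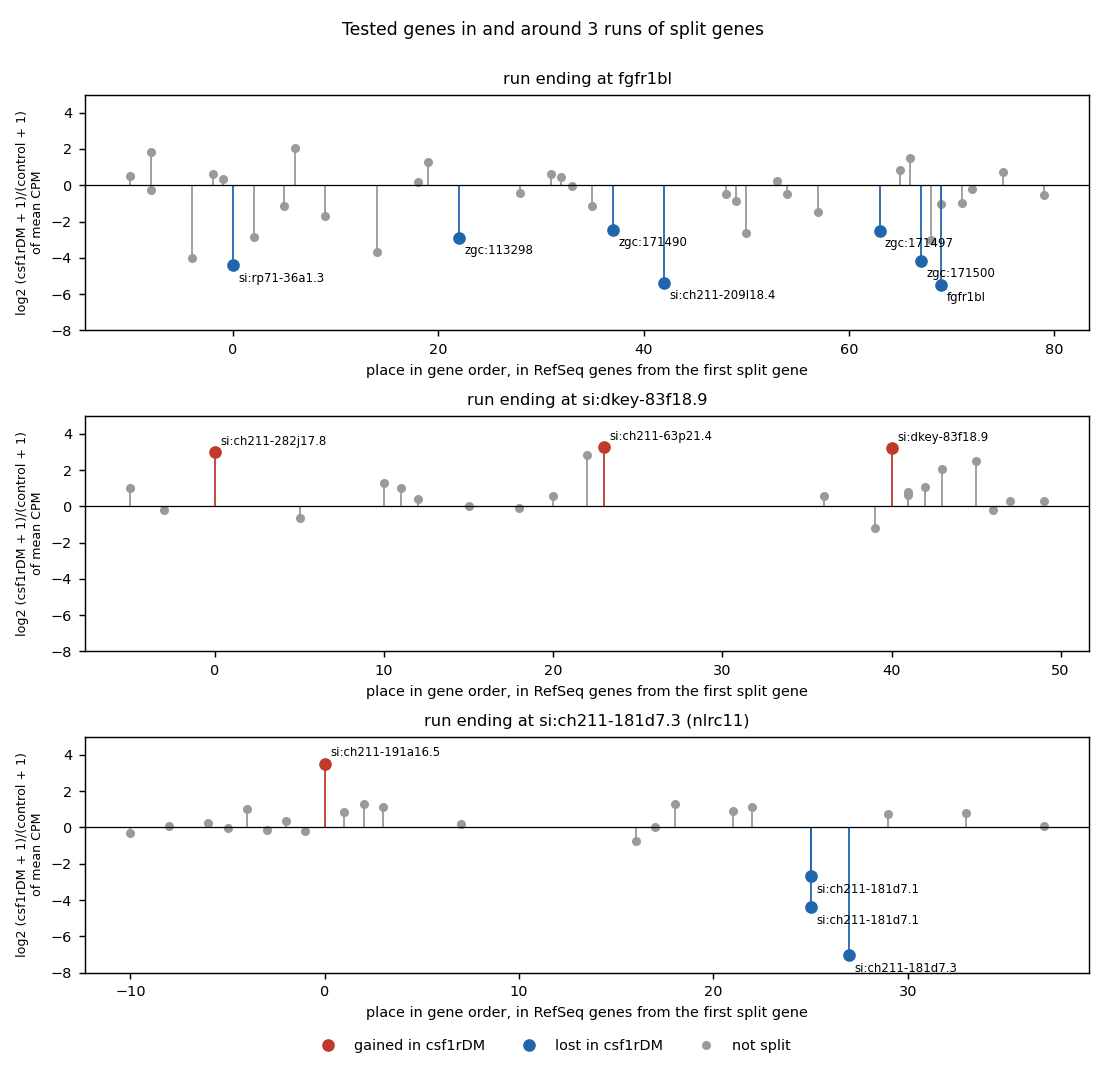
Log2 ratio of mean csf1rDM to mean control level, both as CPM + 1, for tested genes in and around 3 runs of split genes, against their place in the RefSeq gene order counted from the first split gene. Gained genes are red, lost genes blue and others grey. In the top panel 7 lost genes are spread over 70 places and stand among genes that are lower, equal or higher.

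In the names that come with the deposited values, 55 of the 78 (70.5%) had no gene symbol, against 27.7% of all tested genes. The names table gives a symbol for some of these, such as nlrc11, tnfrsf14, ntrnl2 and trpm4b3. Clone or contig names were borne by 21 lost (55.3%) and 21 gained genes (52.5%), against 22.7% of tested genes, and cDNA collection names by 9 lost (23.7%) and no gained genes, against 3.34%.

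The selection did not ask for a difference between the control populations, and that difference was tested with limma over all 20382 genes. The selection did, however, bound the control levels: gained genes had to be lower in all 4 control libraries than in csf1rDM, and 12 of the 40 were under 1 CPM in each of them and entered the test only through csf1rDM, which holds their fold changes between controls near 0. With a limit of 0.05 on the adjusted p and of 2 on the absolute log2 fold change, control DsRed+ cells differed from control DsRed- cells in 1220 genes (5.99%), of which 1010 were higher (4.96%) and 210 lower (1.03%) in control DsRed+ cells. Of the split genes, 5 of 38 lost genes passed, 2 higher and 3 lower, and 1 of 40 gained genes passed, which was higher. Without the fold threshold, 25.4% of tested genes passed, as did 13 of the lost and 3 of the gained genes. Lost genes were bounded too, as the selection left each with 3.15 CPM or more in all 4 control libraries. Genes absent from either control population could thus not be among them. The shares of lost and gained genes that passed are therefore not comparable with those of all tested genes. CR848749.2 and the U2 copy ENSDARG00000080774 had no read in either control population, so that no difference could be measured for them.

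In control DsRed+ cells, zgc:153184 and trpv1 were higher than in control DsRed- cells. The log2 fold change of zgc:153184 was 3.67 ± 0.21 (SE, limma adjusted p = 0.0001012), and that of trpv1 was 3.38 ± 0.17 (SE, limma adjusted p = 9.24e-05). slc2a11b, CABZ01021592.1 and bscl2l were lower in control DsRed+ cells, with log2 fold changes of -3.76 ± 0.23, -3.48 ± 0.2 and -3.40 ± 0.25 (SE, limma adjusted p = 0.0001125, 9.378e-05 and 0.0001955). In both control libraries of the lower population, each of these 5 genes still stood above both csf1rDM libraries, as the selection required.

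ighv1-4, the only gained gene to pass both thresholds, was higher in control DsRed+ cells, with 8.35 and 3.85 CPM, against 0.799 and 0.50 CPM in control DsRed- cells. Its log2 fold change was 2.16 ± 0.35 (SE, limma adjusted p = 0.00543). Without control DsRed+ replicate 1 it was 1.67 (adjusted p = 0.02141), which no longer passes the fold threshold.

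The other 10 genes with an adjusted p below 0.05 had log2 fold changes between -1.69 (si:ch211-63p21.4, gained) and 1.72 (zgc:113363, lost). Within the run of 7 lost genes, zgc:171500 (1.04 ± 0.25), si:rp71-36a1.3 (0.82 ± 0.23) and zgc:171497 (0.68 ± 0.17) were higher in control DsRed+ cells and fgfr1bl (-1.25 ± 0.24) was lower (SE), with limma adjusted p of 0.02494, 0.03917, 0.02391 and 0.009964. The 3 higher genes lost this call when TMM factors were left out, where their log2 fold changes were 0.83, 0.61 and 0.46, and all 4 lost it without control DsRed+ replicate 1, without control DsRed+ replicate 3 or without control DsRed- replicate 1. Over the fits that left out a control library, the log2 fold changes of the 3 higher genes lay between 0.6 and 1.14, and those of fgfr1bl stayed below -1. Each of the 10 genes lost its call in at least 1 of these fits.

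**Figure D5:**
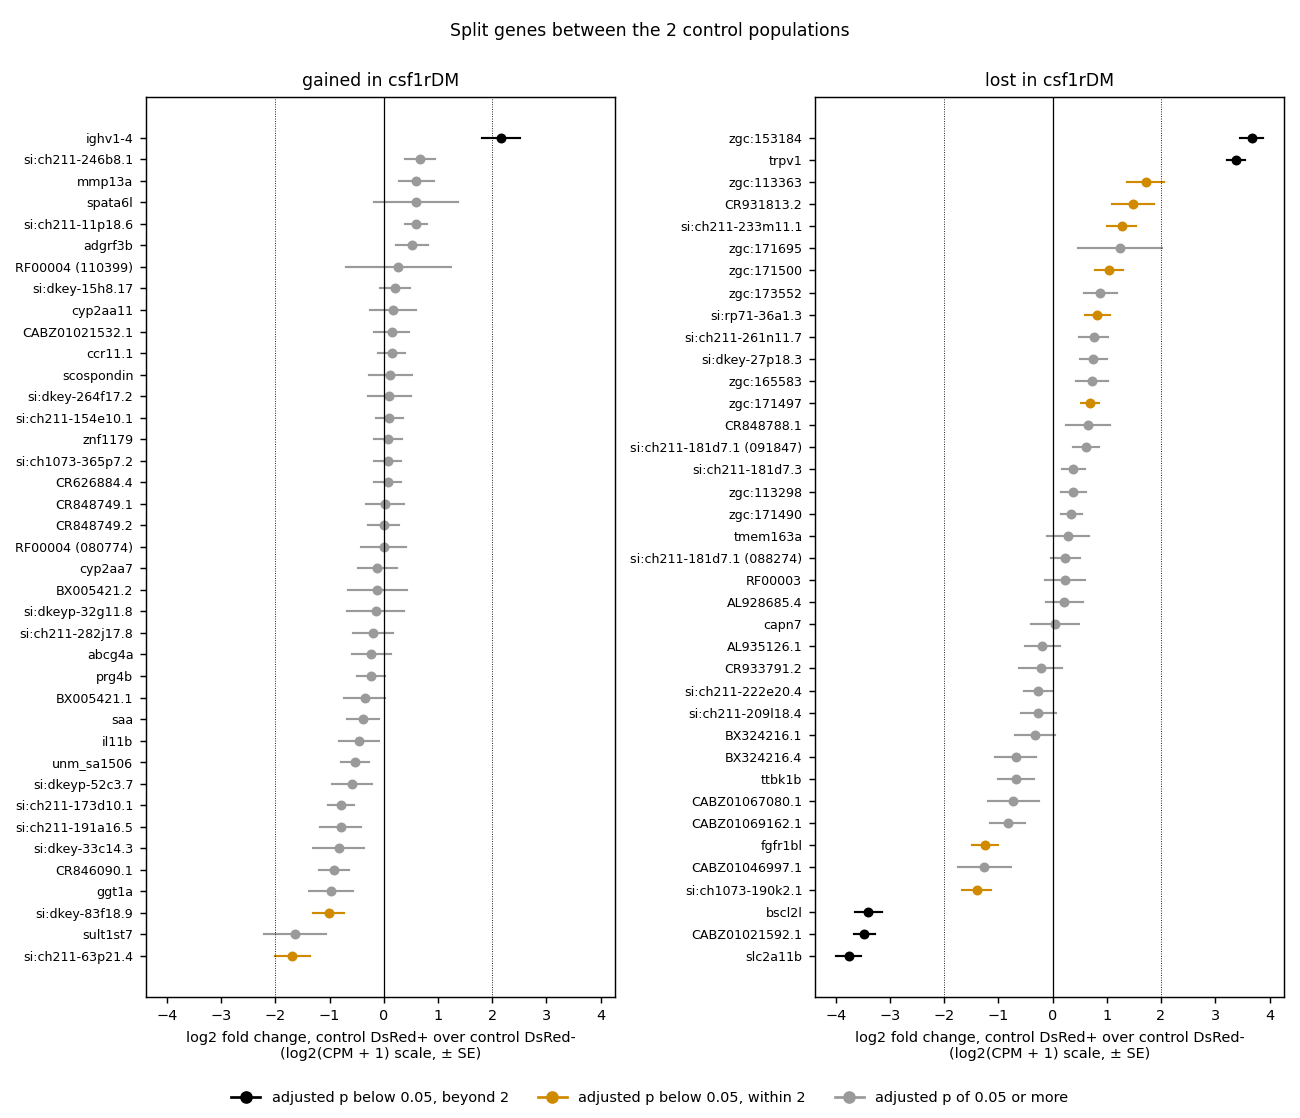
Log2 fold change of control DsRed+ over control DsRed- libraries for the split genes, on the log2(CPM + 1) scale, with its standard error from limma (2 libraries in each control group). Black points passed both thresholds, orange points the adjusted p alone, and dotted lines mark a log2 fold change of 2 in either direction. The 5 farthest lost genes lie beyond 3, while the control levels of many gained genes are too low for such a difference.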

How the data were processed

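RNA of mpeg1-GFP+ skin cells was sequenced in 6 libraries, 2 in each of 3 groups named by the labels and, for DsRed, by the study's text. The authors prepared libraries with the Ovation SoLo system, aligned reads with STAR 2.5.4b to GRCz11 and counted them per Ensembl gene with HTSeq 0.11.0, per the labels and the study's methods. The deposited unit is a signal made from such counts, in which each library was scaled by the authors to a total near 20000000 and rounded up. This scaling was read from the values, since low values rise in even steps, and reading those steps gave whole reads for 99.886% or more of the values, in all 4024251 to 14816042 reads a library. Those depths limit counting precision, and floors of 3 reads cover counting error only. The study's methods give a far larger average number of mapped paired-end reads, and why fewer were recovered was not examined.

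CPM is a deposited value over its library's sum. The genotype conditions were applied to CPM without TMM factors, which put the median log2 ratio of csf1rDM to control over tested genes at -0.14. Control DsRed+ was tested against control DsRed- with limma 3.58.1 (R 4.3.3) on log2(TMM-scaled CPM + 1), a scale that understates the change of low genes, with TMM factors from edgeR 4.0.16. Genes had at least 1 CPM in at least 2 libraries, all 6 libraries entered with 1 coefficient per group, and p-values were adjusted by Benjamini-Hochberg over 20382 genes. The design had foreseen edgeR for counts; because the values are a scaled signal, edgeR's quasi-likelihood test and DESeq2 1.42.0 were alternatives on the recovered reads. Further alternatives were the fold and offset of the conditions, the scaling, thinning, the pseudocount, the filter, the libraries used, the replicate block and leaving out each library.

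The genes and lists were chosen with earlier results of these data known. Genes were named by rule: those without reads on the low side and with at least 5 CPM in every library of the high side, the 12 highest ratios in each direction, genes on a clone or within 5 genes of another differing gene, listed markers, and the 3 genes on either side of each threshold. Families, linked runs and genes named for a known function outside that rule (such as saa, il11b, ggt1a and tmem163a) were chosen after their values were seen. A gained gene is counted but not reported here, in text or figures of single genes. No sequences are printed. Figures were drawn with matplotlib 3.10.9.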

Additional observations from a re-analysis of the deposited data

How the results depend on the processing

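The number of split genes followed the conditions, 38 lost and 40 gained genes as reported. It was 70 and 72 with a ratio of 3, and 16 and 12 with a ratio of 8. An offset of 2 CPM left 24 lost genes. Comparing only DsRed- libraries gave 158 lost genes, which had to include all 38 because fewer control libraries relax the condition. Leaving out a library relaxes the conditions, so genes can only be added: 40 to 133 lost and 40 to 114 gained genes were found, the highest counts without csf1rDM replicate 2, and without csf1rDM replicate 3 there were 64 lost and 56 gained genes. TMM-scaled CPM gave 34 lost and 45 gained genes.

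Between control populations, edgeR called 1852 genes, 1218 of them shared with the 1220 reported. Without the fold threshold 5173 genes and 16 split genes passed, and with log2 fold changes beyond 1 it was 3947 genes and 14 split genes. Leaving out each library gave 1145 to 1436 genes and 6 to 8 split genes. Leaving out TMM factors moved the median log2 fold change from -0.02 to -0.21 and the share of called genes that were higher from 82.8% to 76.2%. Whether replicate numbers pair the samples could not be settled, since any pair of groups shares a single number. Same-numbered libraries deviated together with r = 0.03, 0.02 and -0.42. The last value is for replicate 1 of control DsRed+ and of control DsRed-. The 2 libraries of a group deviate in opposite directions, so control DsRed+ replicate 3 and control DsRed- replicate 1 deviated together to the same extent. On a list of antigen processing genes of the MHC region, psmb8a was at 51.3 CPM in control DsRed+ replicate 3 and 16.5 CPM in control DsRed- replicate 1. It was at 0.20 CPM in each other control library. The listed genes psmb9a, psmb12, psmb13a and tap2a had the same pattern, and the rest of that list did not. Neither the main fit nor the replicate block modelled a link between these libraries, so the p-values treat them as independent. With the replicate block 1179 genes and the same 6 split genes were called, while 8 of the 16 split genes with an adjusted p below 0.05 lost it. Over 15 alternatives, the calls of these 16 genes were kept in 193 of 240 fits, and 0 fits reversed a direction; ighv1-4 had a log2 fold change of 1.65 with a pseudocount of 2. The cause of these differences was not tested. With 2 libraries a group and the shallower csf1rDM libraries, levels near the floor of 0.745 CPM cannot be told from 0.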

Other observations

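Other IMAP GTPase genes that were not split differed between libraries too. CABZ01049361.1 was at 13.8 and 14.9 CPM in csf1rDM, 3.3 and 1.3 CPM in control DsRed+ and 5.5 and 6.55 CPM in control DsRed- cells. LO018551.1 was at 6.9 and 6.25 CPM in csf1rDM and 0.60 to 1.8 CPM in controls. The 9 tested genes of this family summed to 98.1 and 81.4 CPM in csf1rDM, 34.6 and 29.6 CPM in control DsRed+ and 68.9 and 62.8 CPM in control DsRed- cells.

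Among U2 copies, ENSDARG00000117035 went the other way without meeting the condition, at 4.75 and 7.25 CPM in csf1rDM and 29.6 to 43.6 CPM in controls. The copies ENSDARG00000111709 and ENSDARG00000115186 had nearly the same level in every library, at 32.7 and 32.1 CPM in csf1rDM replicate 2 and 43.7 CPM each in csf1rDM replicate 3, against 19.6 CPM each in control DsRed+ replicate 1.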
